A study of Mus musculus with 24 samples.

Results

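The proteasome subunit genes were taken as all genes on the array whose name starts with Psma, Psmb, Psmc, Psmd or Psme, with Psmb8 and Psmb9 left out. The rule gave 42 of the 30854 gene names on the array, and 35 of the 42 were detected in at least 2 arrays and tested beside 14216 genes in all. The samples were epidermis of B6-129Sv mixed mice, peeled from the dermis after trypsin overnight in the cold. Mutants carried 2 floxed alleles of Mad2 (Mad2l1), a spindle checkpoint gene, together with Cre recombinase driven by the promoter of the basal keratin gene K14 (Mad2f/f; K14Cre+). The deletion is therefore limited to K14-expressing keratinocytes and their descendants, while RNA came from all cells of the peeled sheet. Mutants and controls labelled Cre-Neg, whose Mad2 alleles the labels do not give, were sampled at postnatal day 3 (P3, 2 mutants and 4 controls), day 6 (P6, 2 and 2), day 13 (P13, 2 and 2) and day 20 (P20, 2 and 3). The adults were 1 mutant, 2 mutants that also carried a floxed p53 allele (Mad2f/f; p53f/+; K14Cre+) and 1 control that carried Cre and a single floxed Mad2 allele (Mad2f/+; K14-Cre+). Mutants were recorded as without phenotype at P3 and as nude at every later age. One further P3 array, with a mutant genotype but typed as a control, entered no comparison.

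The proteasome degrades proteins that carry ubiquitin chains. Its 20S core is a barrel of outer alpha rings and inner beta rings, and the beta subunits Psmb5, Psmb6 and Psmb7 carry the proteolytic sites. The 19S regulatory particle binds the substrate, removes the ubiquitin and unfolds the protein with a ring of ATPases (Psmc genes), helped by non-ATPase subunits (Psmd genes). Other activators can take the place of the 19S particle: Psme1 and Psme2 form PA28, which interferon gamma induces, Psme3 encodes PA28 gamma of the nucleus, and Psme4 encodes PA200. Psmb10 encodes the inducible subunit that takes the place of Psmb7 in immunoproteasomes, and Psmb8 and Psmb9, outside the rule, encode the counterparts of Psmb5 and Psmb6. Psmd5, Psmd9 and Psmd10 are chaperones of base assembly and are absent from the finished particle. Psmc3ip falls under the rule by its name only: its product acts in meiosis and is no proteasome subunit.

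The 42 names covered 31 standard subunits of the 20S core and 19S particle, of which 26 were tested: 4 of 7 alpha, 7 of 7 beta, 5 of 6 ATPase and 10 of 11 non-ATPase genes. The others tested were the 4 activators, the 3 chaperones, Psmb10 and Psmc3ip. Psma1, Psma3, Psma6, Psmc6 and Psmd3 were detected in no array, although their products are standard subunits, so their probes gave no level here. The same held for the thymus subunit gene Psmb11 and the testis subunit gene Psma8. Signals are given as log2 intensity after background correction and quantile normalization, and levels of different probes are not compared.

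The arrays lay on 8 chips, called A to H here. Between 23.3% and 40.1% of probes were detected per array in the 23 arrays with detection values, and 75th percentiles of signal exceeded the estimated background by 21.2 to 182 units. The 3 arrays of chip G (P20 mutant 2, P20 controls 2 and 3) had the lowest signal. Mad2l1 was lower in every mutant (log2 intensity 4.64 to 6.27) than in any control (6.35 to 9.39), and stood at 7.69 in the array with conflicting labels. The keratin genes Krt14 and Krt10, which mark basal and suprabasal keratinocytes, had means of 14.99 to 15.54 on either side of each comparison. Other keratins were less level: the suprabasal Krt1 was higher in mutants by 3.14 at P6, 4.18 at P13, 3.02 at P20 and 3.82 in adults (limma, largest adjusted p = 0.00013), and the basal Krt5 differed by -0.78 to 1.46 without passing. The 5 basal keratinocyte genes tested, Krt14 and Krt5 among them, all had negative differences at P6, with a median of -0.70. Their list means at P6 were 10.70 and 11.13 in mutants against 11.77 and 12.13 in controls. At P20 4 of the 5 were negative (median -0.93), whereas at P3 all 5 were positive, and 3 were at P13 and in adults. None of the 5 passed at any age. The mean of 15 fibroblast genes ran from 5.29 to 11.05 over the arrays. It was 5.41 and 5.46 in the P6 mutants against 10.53 and 10.89 in the P6 controls, and all 15 genes were lower there. The adult control stood at 11.05 and the adult mutant without the p53 allele at 10.40, against 5.29 and 5.56 in the mutants with it. The mean of 4 muscle genes was 12.54 in the adult mutant without that allele and 4.67 to 5.58 in the other adults. For 2 adipocyte genes it was 11.54 in that mutant and 11.76 in the control, against 4.89 and 5.13 in the p53f/+ mutants. The part of these lists in the adult differences was not tested. The labels do not say whether samples came from separate animals, so p-values measure the spread between samples, and their small number limits the precision.

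Over the whole family, few genes passed the threshold in the fit reported here, and the counts in other settings are given below. By limma with Benjamini-Hochberg adjustment at 0.05, no proteasome gene passed at P3, where 1.94% of all genes tested did (and none had an unadjusted p under 0.05). At P6, 1 of 35 rose and 1 fell, where 9.57% and 13.4% of all genes did. At P13, 3 of 35 passed (8.57%), 1 higher and 2 lower, where 20.5% of all genes passed. At P20, 2 of 35 rose (5.71%), where 4.46% of all genes did, and in adults 1 of 35 fell (2.86%), where 6.69% did. The genes were Psme2 and Psmc3ip at P6, Psmb10, Psmd5 and Psmc3ip at P13, Psmd12 and Psmc4 at P20, and Psmc3ip in adults. Of the 26 standard subunits, none passed at P3, P6, P13 or in adults by limma, with unadjusted p under 0.05 in 0, 1, 3 and 0 of them.

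**Figure D1:**
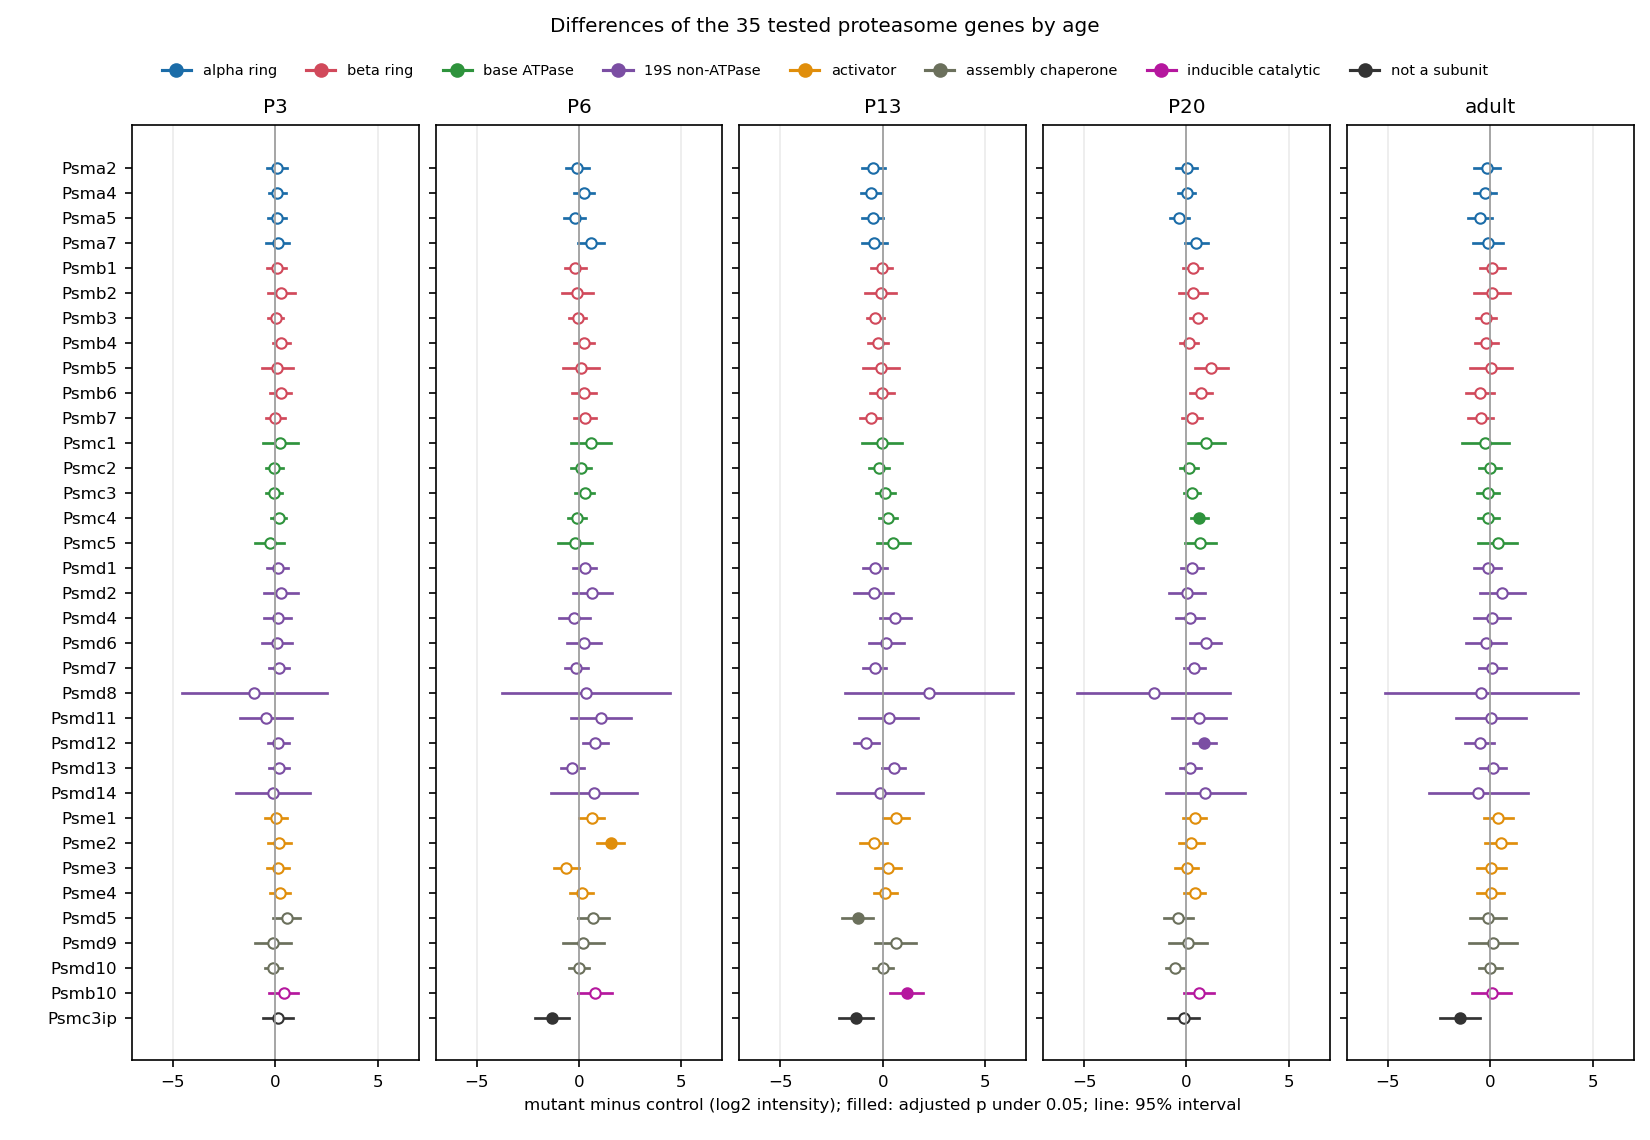
Difference between mutants and controls in log2 intensity (x axis) for each of the 35 tested genes (y axis, coloured by role) at each age, with its 95% interval as a line; filled points passed the adjusted threshold. Most points lie near 0, the 8 filled points are spread over 6 genes, and Psmd8 has by far the widest intervals.

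A gene that misses the threshold may still have changed, so the intervals were read as well. The 95% interval of the difference lay within 1 log2 unit of 0, that is within 2-fold either way, for 28 of 35 proteasome genes at P3 (80%), where 57.0% of all genes did so. The share was 51.4% (18 of 35) at P6 against 24.1% of all genes, 42.9% (15) against 24.2% at P13, 54.3% (19) against 37.8% at P20, and 51.4% (18) in adults, where 2557 of the 14216 genes did so. For the other genes the interval reached a 2-fold change in at least one direction. The width of an interval follows its standard error. The median standard error was smaller for the 35 genes than for all genes at each age, at 0.25 against 0.32 at P3 and 0.26 against 0.34 at P20. The median size of the difference was 0.14 against 0.21 at P3, 0.25 against 0.52 at P6 and 0.40 against 0.51 at P13. At P20 it was level, at 0.39 against 0.39, and in adults it was 0.14 against 0.47. The median difference of the 35 genes was 0.11 at P3, 0.24 at P6, -0.08 at P13, 0.28 at P20 and -0.09 in adults, where the medians of all genes lay between -0.04 and 0.03.

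**Figure D2:**
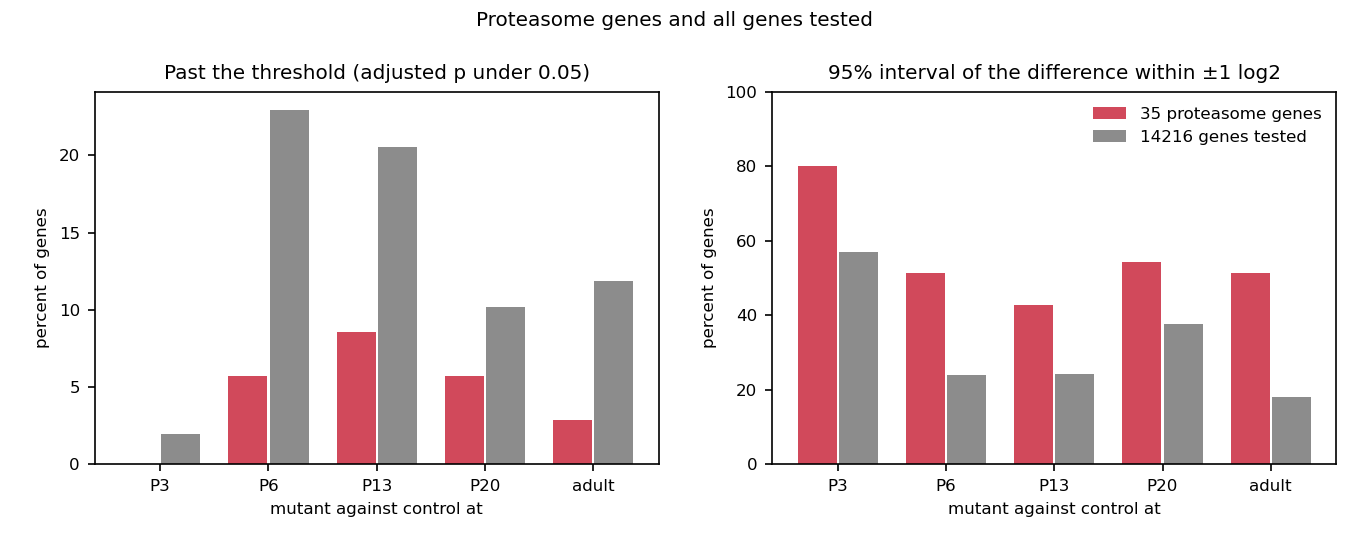
Percent of genes past the threshold (left) and percent whose 95% interval lies within 1 log2 unit of 0 (right) at each age, for the 35 proteasome genes and the 14216 genes tested. The bars of proteasome genes are lower on the left (0 to 8.57%) and higher on the right (42.9% to 80%) than those of all genes at each age. The median standard error of the proteasome genes was also smaller at each age.

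The direction of the family as a whole depended on the scaling at P13 and in adults. With quantile normalization 16 of the 26 standard subunits had a positive difference at P6, 8 at P13 and 9 in adults. With each array scaled to its 75th percentile these counts were 26, 16 and 22. The median of all genes moved by 0.19 at P13 under that scaling and by less than 0.02 at the other ages. Relative to the median of all genes, the 35 genes then had a median of 0.62 at P6, 0.02 at P13, 0.56 at P20 and 0.31 in adults. At P3 and P20 the counts changed little, from 20 to 19 and from 24 to 24. At P6 the majority was positive under both scalings, although its size differed. No direction of the family is therefore given for P13 or adults.

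At P6 the PA28 gene Psme2 rose. It stood at 9.74 and 9.26 in the 2 mutants and at 7.81 and 8.07 in the 2 controls. Both mutants were above both controls, by 1.56 ± 0.31 (SE) on the log2 scale or 2.95-fold (limma, adjusted p = 0.0016). Psme1, which encodes the other PA28 subunit, stood at 11.88 and 11.33 in mutants and at 10.93 and 11.02 in controls. Its groups did not overlap either, but the difference of 0.63 ± 0.29 missed the threshold (limma, adjusted p = 0.13). A second probe of Psme1 gave 1.02 ± 0.29 and passed when every probe was tested alone (limma, adjusted p = 0.019). Psme3 differed by -0.62 ± 0.29 (95% interval -1.24 to -0.01) and Psme4 by 0.13 ± 0.27 (-0.43 to 0.69), and neither passed.

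The Psme2 difference was still called when any of the 4 arrays was left out, at 1.32 to 1.80. It was lost when the mean of the fibroblast genes was added to the fit. Psme2 then differed by -0.16 (limma, adjusted p = 0.96), and none of the 14216 genes was called at P6 in that fit, with unadjusted p under 0.05 in 1795. The fibroblast mean separated the P6 groups almost completely, as given above. Other lists moved with Psme2 at P6. Of 15 genes of interferon response and antigen presentation 12 were higher in P6 mutants, and their mean was 8.14 and 9.96 in mutants against 6.93 and 7.17 in controls. The 3 Langerhans cell genes were all higher (means 10.9 and 11.1 against 7.81 and 8.85), as were 3 of 5 myeloid genes (6.52 and 6.65 against 5.51 and 5.55). All 4 hair matrix and shaft genes and 5 of 7 endothelial and blood genes were lower. The part of these lists in the Psme2 difference was not tested. In RNA of a whole tissue, fewer cells of a type and less RNA per cell cannot be told apart.

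The immunoproteasome genes outside the rule, Psmb8 and Psmb9, were higher at P6. Both also belong to the list of interferon and antigen genes counted above, so they do not add to that count. Psmb8 stood at 9.62 and 8.02 in mutants against 6.24 and 6.31 in controls, a difference of 2.55 ± 0.48 (limma, adjusted p = 0.001). Psmb9 stood at 9.42 and 7.48 against 6.64 and 6.04, a difference of 2.11 ± 0.64 (limma, adjusted p = 0.024). In both genes mutant 1 was well above mutant 2. Psmb10, which completes the inducible catalytic set, also had mutant 1 above mutant 2, at 10.18 and 9.13 in mutants and 8.84 and 8.91 in controls. Its difference of 0.78 ± 0.39 did not pass (limma, adjusted p = 0.17), and it was 0.26 without mutant 1.

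Psme1 and Psme2 are neighbours in the genome, and their promoters were read for the cores of 2 interferon elements on both strands. That of the interferon-stimulated response element (ISRE) was taken as GAAA, any 2 bases and GAAA, and that of the gamma-activated sequence as TTCNNNGAA. RefSeq promoters (GRCm38.p6, 250 bases before to 50 after the listed start) were found for 35 of the 42 genes. The ISRE core occurred in 4 of the 35 (11.4%) and in 3.47% of 26994 promoters of all genes. The 4 were Psmb3, Psmd4, Psme1 and Psmd9. TTCNNNGAA occurred in 1, that of Psmd2 (2.86%, against 8.46% of all). The promoter of Psme1 is shown because its match, in capitals and on the opposite strand, begins at base 10 counted from the listed start. The windows of Psme2 and Psmb10 held neither core.
Psme1, chr14:55578244-55578543 (+ strand): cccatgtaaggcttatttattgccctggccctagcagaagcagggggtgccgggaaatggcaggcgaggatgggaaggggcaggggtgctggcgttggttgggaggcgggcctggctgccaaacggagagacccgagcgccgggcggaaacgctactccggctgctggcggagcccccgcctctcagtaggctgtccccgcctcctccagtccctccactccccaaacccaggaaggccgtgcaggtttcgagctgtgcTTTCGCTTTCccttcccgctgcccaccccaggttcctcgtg

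At P13 the inducible catalytic gene Psmb10 rose. It stood at 9.68 and 10.26 in mutants and at 9.02 and 8.58 in controls. The groups did not overlap, and the difference was 1.17 ± 0.39 or 2.26-fold (limma, adjusted p = 0.04). A second Psmb10 probe gave 1.31 ± 0.50 (limma, adjusted p = 0.079 over all probes). Psmb8 overlapped between the groups at P13, at 7.22 and 8.48 in mutants and 7.56 and 7.42 in controls. Psmb9 did not overlap, at 7.66 and 9.47 against 7.19 and 6.50, and neither gene passed. Of the interferon and antigen genes 9 of 15 were higher at P13, with means of 8.85 and 9.88 in mutants against 7.40 and 7.74 in controls, and 2 of 5 myeloid genes were. The part of these in the Psmb10 difference was not tested. Psme2 overlapped between the groups at this age, at 7.36 and 8.15 in mutants and 8.29 and 8.10 in controls (difference -0.44 ± 0.31).

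Psmd5, the chaperone that holds the ATPase Psmc2 during base assembly, fell at P13. It stood at 6.13 and 6.44 in mutants and at 7.41 and 7.61 in controls, all mutants below all controls, a difference of -1.23 ± 0.36 (limma, adjusted p = 0.023). At P3 the mutants had 7.83 and 7.33 against 6.82 to 7.19 in controls, and at P6 the mutants had 6.77 and 6.78 against 5.89 and 6.24. In both these ages the mutants lay above the controls, by 0.55 ± 0.31 and 0.70 ± 0.36, without passing. The other chaperones, Psmd9 and Psmd10, passed at no age. A second Psmd10 probe, however, was lower at P13 by -1.11 ± 0.28 (limma, adjusted p = 0.01 over all probes), against 0.01 ± 0.23 for the probe used. At P20 Psmd10 differed by -0.56 ± 0.21 and was called without background correction and with the authors' normalized values. The P13 calls were fragile: the adjusted p of Psmd5 rose to between 0.051 and 0.16 when any of the 4 arrays was left out, and that of Psmb10 to between 0.061 and 0.27. The fibroblast means of the P13 arrays lay close together, at 9.51 and 9.65 in mutants and 9.65 and 10.1 in controls. Single genes of this list did move: of the 15, 2 were higher and 1 was lower, with differences from -2.90 to 1.41. Other marker lists moved at P13: all 4 hair matrix and shaft genes were lower in mutants (list means 4.91 and 4.99 against 10.41 and 10.52), and 2 of 4 suprabasal genes were higher. Their part in the P13 calls was not tested.

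**Figure D3:**
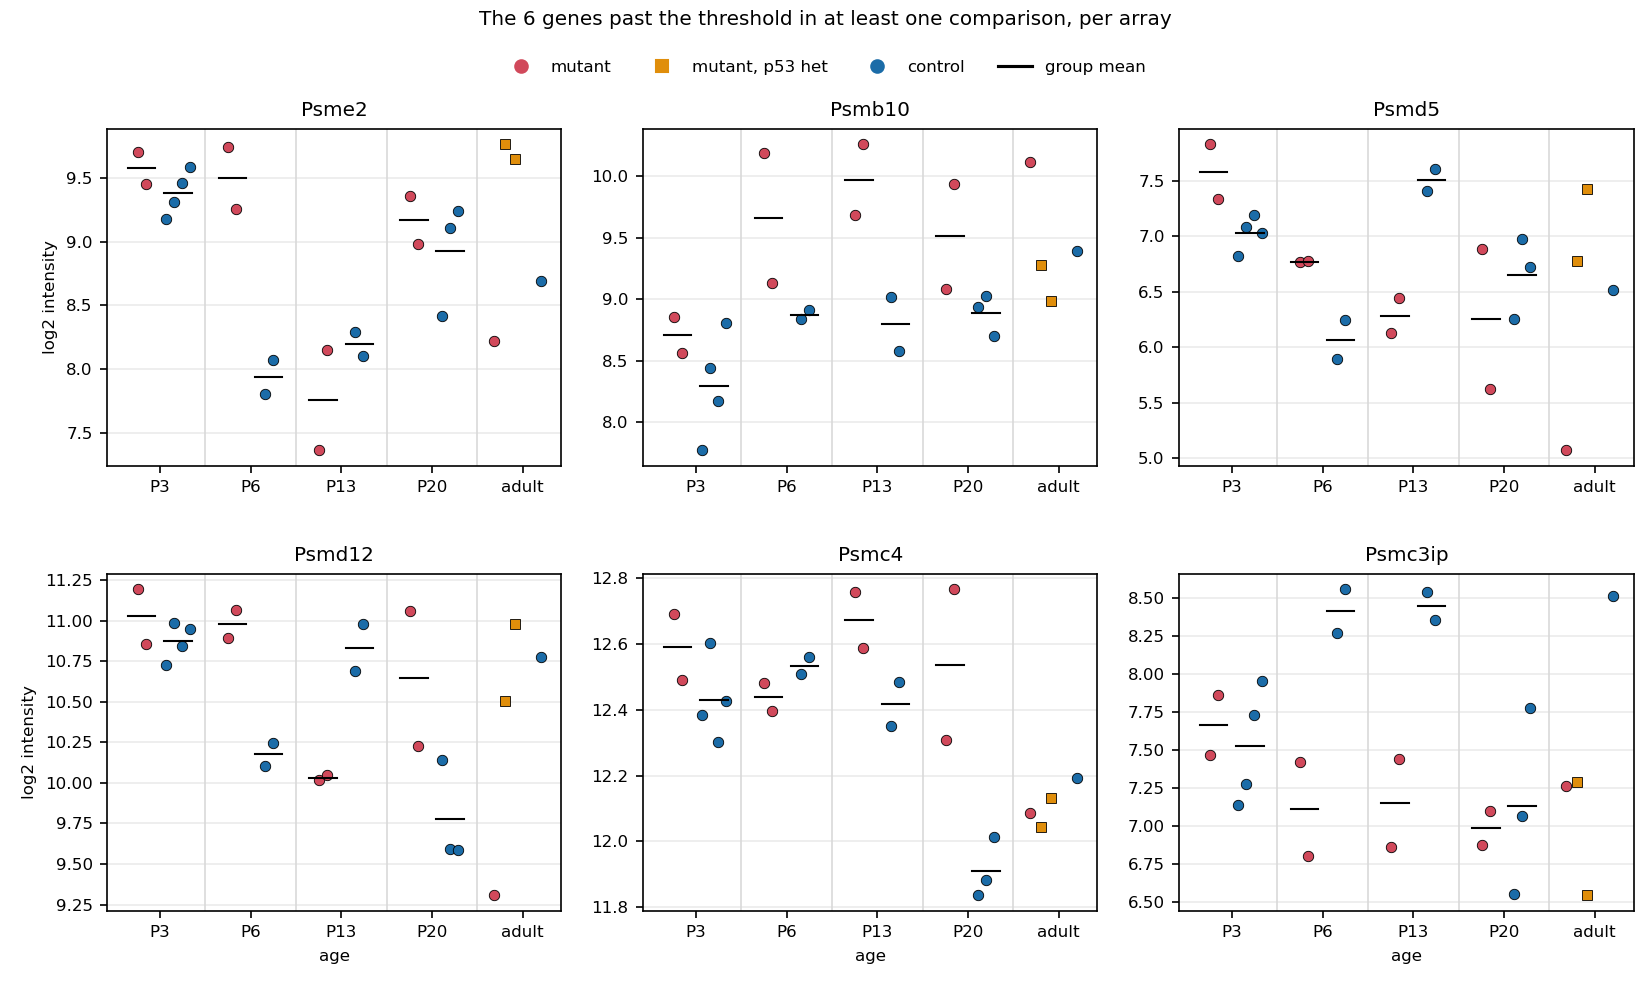
Log2 intensity (y axis) in each array at each age (x axis) for the 6 genes that passed in at least one comparison, with mutants in red, p53f/+ mutants in orange, controls in blue and bars at group means. Where they passed, Psme2 parts the groups at P6, Psmb10 and Psmd5 at P13, Psmd12 and Psmc4 at P20, and Psmc3ip at P6, P13 and in adults. Groups also part at ages without a call, among them Psmd12 at P6 and P13, Psmd5 at P3 and P6, and Psmb10 at P6 and P20.

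P20 was the only age at which standard subunits under the naming rule were called in the fit reported here. Psmd12, a lid subunit of the 19S particle, stood at 11.06 and 10.23 in mutants and at 10.14, 9.60 and 9.58 in controls. The difference was 0.87 ± 0.26 or 1.83-fold (limma, adjusted p = 0.044). Psmc4, an ATPase of the base, stood at 12.31 and 12.77 in mutants and at 11.84, 11.88 and 12.01 in controls, a difference of 0.63 ± 0.19 or 1.54-fold (limma, adjusted p = 0.049). In both genes the groups did not overlap. The fibroblast mean was 5.46 and 5.94 in the P20 mutants and 5.97 to 7.52 in the controls, with 2 of 15 genes lower. All 3 T and NK cell genes were lower (list means 6.84 and 8.51 against 9.95 to 10.52), 3 of 15 interferon and antigen genes were higher, and so was Krt1, as given above. The part of these markers in the P20 differences was not tested. Within chip F (1 mutant, 1 control) the differences were 0.92 for Psmd12 and 0.47 for Psmc4, and within chip G (1 mutant, 2 controls) 0.64 and 0.82.

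Most other standard subunits had positive differences at P20 that did not pass. All 7 beta genes and all 5 tested ATPase genes had positive differences, with medians of 0.33 and 0.63, as had 9 of 10 non-ATPase genes and 3 of 4 alpha genes. Of all genes tested, 6706 of 14216 had a positive difference. Within chip F 28 of the 35 genes were positive with a median of 0.39, and within chip G 25 with a median of 0.31. The mean of the 25 tested standard subunits without Psmd8 was 11.38 and 11.04 in mutants and 10.96, 10.69 and 10.71 in controls. The P20 controls held the 3 lowest of these means among the controls of all ages.

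Among the catalytic subunits at P20, Psmb5 stood at 9.64 and 8.18 in mutants and at 8.18, 7.28 and 7.67 in controls. The lower mutant and the highest control were level at 8.18, and the difference of 1.20 ± 0.38 did not pass (limma, adjusted p = 0.056). Psmb6 stood at 12.21 and 11.68 in mutants and at 11.60, 11.11 and 11.01 in controls, a difference of 0.70 ± 0.25 (limma, adjusted p = 0.092). Psmb7 overlapped between groups and differed by 0.28 ± 0.23. Psmb3, a structural beta subunit, stood at 12.37 and 12.36 against 11.87, 11.77 and 11.77, a difference of 0.56 ± 0.18 that narrowly missed (limma, adjusted p = 0.06).

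**Figure D4:**
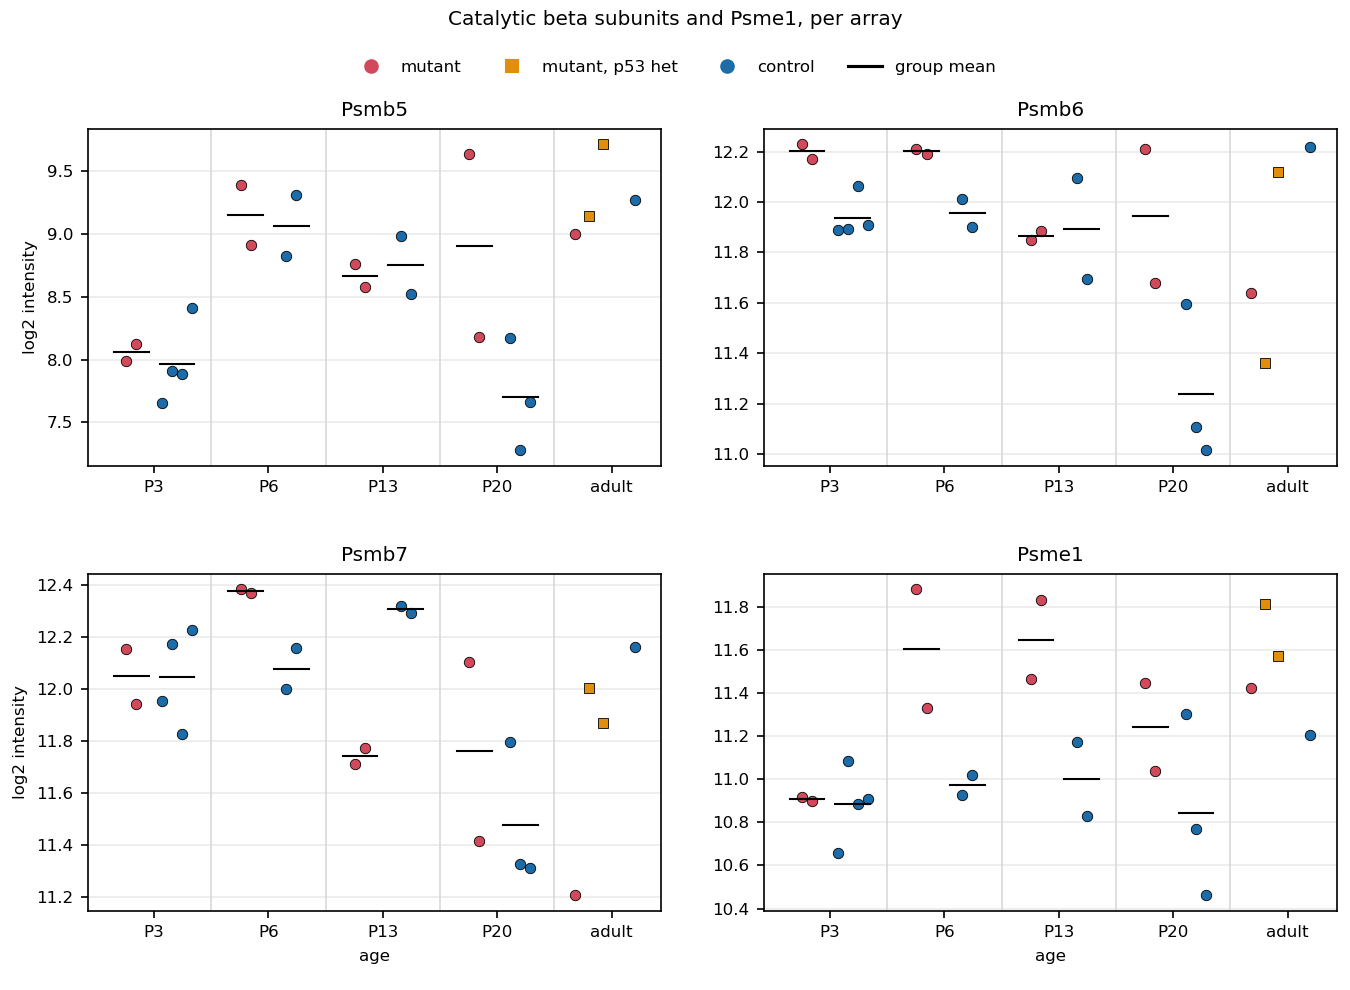
Log2 intensity (y axis) in each array at each age (x axis) for the catalytic beta subunit genes and the PA28 gene Psme1, with mutants in red, p53f/+ mutants in orange, controls in blue and bars at group means. At P20 Psmb5 and Psmb6 differ by 1.20 and 0.70, and neither difference passed. In both genes 1 of the 2 mutants is close to or level with the highest control.

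The number of P20 calls moved with the setting and with single arrays. With the chip as a fixed block 8 genes passed, all higher: Psma7, Psmb2, Psmb3, Psmb5, Psmb6, Psmc1, Psmc4 and Psmd12. Without control 1, the control on chip F, 10 passed. Without control 2 or without control 3 none passed (unadjusted p under 0.05 in 7 and 6), and without mutant 1 only Psmc4 did. Without mutant 2 the 5 were Psmb5, Psmb6, Psmc1, Psmd11 and Psmd12. In a fit of the P20 arrays alone, and with arrays weighted by quality, none passed (unadjusted p under 0.05 in 0 and 7). A second probe of Psmd12, detected in 7 arrays, differed by 0.30 ± 0.57, and a second probe of Psmc4, detected in 3, by -0.01 ± 0.41.

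Proteasome genes can be raised together by NFE2L1, which binds antioxidant response elements when proteasome activity is short. The core of this element, TGACNNNGC, was therefore looked for on both strands of the same promoters. It occurred in 6 of 35 (17.1%) and in 12.5% of all promoters, a share near the background. The 6 were Psmb5, Psmb6, Psmc6, Psmd12, Psme4 and Psmd9. The promoters of Psmc4, also called at P20, and of Psmb3 did not hold this core, and Psmb7 had no promoter entry. The promoters of Psmb5, Psmb6 and Psmd12 are shown, with the match in capitals, because they held it and their P20 levels are given above. The matches begin 47, 9 and 247 bases before the listed start, that of Psmd12 on the opposite strand. The CCAAT box, for the factor NF-Y, occurred in 14 of 35 promoters (40%) and in 37.9% of all. Nothing about the binding of either factor follows from these letters.
Psmb5, chr14:54617946-54618245 (- strand): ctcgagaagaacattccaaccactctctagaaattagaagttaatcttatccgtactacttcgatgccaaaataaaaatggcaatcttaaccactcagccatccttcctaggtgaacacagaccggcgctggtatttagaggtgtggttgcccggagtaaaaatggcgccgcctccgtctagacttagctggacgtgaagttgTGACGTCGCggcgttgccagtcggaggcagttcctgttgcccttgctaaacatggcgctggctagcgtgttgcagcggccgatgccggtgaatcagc
Psmb6, chr11:70525107-70525406 (+ strand): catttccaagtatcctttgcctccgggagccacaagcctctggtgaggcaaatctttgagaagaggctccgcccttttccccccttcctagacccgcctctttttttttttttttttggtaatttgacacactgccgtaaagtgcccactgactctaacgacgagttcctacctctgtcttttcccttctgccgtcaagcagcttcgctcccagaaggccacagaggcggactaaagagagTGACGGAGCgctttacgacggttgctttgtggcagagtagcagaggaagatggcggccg
Psmd12, chr11:107479278-107479577 (+ strand): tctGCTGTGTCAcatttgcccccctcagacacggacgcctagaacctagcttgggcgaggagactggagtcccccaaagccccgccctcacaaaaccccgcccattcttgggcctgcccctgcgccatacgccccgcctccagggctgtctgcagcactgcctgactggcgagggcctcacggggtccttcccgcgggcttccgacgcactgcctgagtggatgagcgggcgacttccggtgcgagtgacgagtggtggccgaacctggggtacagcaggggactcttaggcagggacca

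Psmc3ip fell at P6, P13 and in adults. At P6 it stood at 7.42 and 6.80 in mutants and 8.27 and 8.56 in controls (difference -1.30 ± 0.39, limma, adjusted p = 0.024). At P13 it stood at 6.86 and 7.44 against 8.54 and 8.35 (-1.29 ± 0.39, limma, adjusted p = 0.028). In adults the mutant stood at 7.26 and the p53f/+ mutants at 7.29 and 6.54 against 8.52 in the single control (-1.48 ± 0.45, limma, adjusted p = 0.043). At these 3 ages every mutant was below every control, whereas at P3 and P20 the groups overlapped, with differences of 0.14 ± 0.34 and -0.14 ± 0.36. The lone adult control is assumed to vary like the other groups. All 4 hair matrix and shaft genes were lower in mutants at P6, P13 and in adults. At P3, where Psmc3ip did not fall, all 4 also had negative differences, of which 1 passed. The list means at P3 were 6.70 and 7.14 in mutants against 8.34 to 9.54 in controls. At P20 none of the 4 passed. Their part in the Psmc3ip differences was not tested. The call was lost without P6 mutant 2, P6 control 1 or P6 control 2 (adjusted p of 0.066 to 0.21), without P13 mutant 1 or either P13 control (0.10 to 0.23), and without the adult p53f/+ mutant 2 (0.12). With the fibroblast mean in the fit it was lost at P6 and in adults (adjusted p = 0.52 and 0.45) and kept at P13.

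Whether the mutant effect differed between P3, P6, P13 and P20 was tested directly by an F test. It passed for 3 of 35 genes (limma), where 19.4% of all genes passed. For Psmd12 (adjusted p = 0.018) the effect was 0.15 at P3, 0.80 at P6, -0.80 at P13 and 0.87 at P20. At P13 its mutants stood at 10.02 and 10.05, below the controls at 10.69 and 10.98, and at P6 its mutants stood at 10.90 and 11.07, above the controls at 10.11 and 10.25. Neither difference passed on its own (limma, adjusted p = 0.054 at P6 and 0.059 at P13), but Psmd12 was called at P6 in 10 of 15 other settings and at P13 in 9 of 14, whereas its P20 call was lost in 4 of 14. The P13 effect of Psmd12 differed from that at P6 by -1.61 ± 0.41 and that at P20 from that at P13 by 1.67 ± 0.39 (adjusted p = 0.018 and 0.015, comparisons in which 9.93% and 7.81% of all genes passed). For Psme2 (adjusted p = 0.021) the P6 effect was larger than that at P3 by 1.36 ± 0.41 (adjusted p = 0.043, 11.1% of all genes), and the P13 effect was lower than that at P6, a difference of -2.00 ± 0.44 (adjusted p = 0.0079). For Psmd5 (adjusted p = 0.027) the P13 effect was lower than those at P3, by -1.78 ± 0.48 (adjusted p = 0.031, 7.96% of all genes), and at P6, by -1.93 ± 0.51 (adjusted p = 0.023). Psmb3 came next and did not pass (adjusted p = 0.085). With the fibroblast mean in the fit only Psmd5 passed, and with single arrays left out 1 to 5 genes did.

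Among the controls, levels differed between ages for 14 of 35 proteasome genes by the F test (limma), where 45.2% of all genes passed. Age and chip cannot be told apart here, since no chip held controls of more than 1 of these ages. The fibroblast mean of the controls also differed, at 5.79 at P3, 10.71 at P6, 9.88 at P13 and 6.61 at P20. Its part in the differences between control ages was not tested. Psme2 was highest in P3 controls (9.38 ± 0.18, SD, n = 4), lowest at P6 (7.94 ± 0.18, n = 2) and P13 (8.20 ± 0.13, n = 2) and again higher at P20 (8.92 ± 0.44, n = 3), adjusted p = 0.0011. The P6 rise of Psme2 in mutants was measured against this lowest control mean. Psmd12 in controls was 10.88 ± 0.11 at P3, 10.18 ± 0.10 at P6, 10.83 ± 0.21 at P13 and 9.77 ± 0.32 at P20 (adjusted p = 0.0025). Psmb3 was lowest at P20 (11.80 ± 0.06) and highest at P6 (12.64 ± 0.07), adjusted p = 0.0037. Psma7, an alpha subunit gene, was highest at P3 (12.20 ± 0.15) and lower at P6 (11.22 ± 0.14) and P20 (11.36 ± 0.60), adjusted p = 0.0095. With the chip as a random block 4 genes passed, and with the fibroblast mean in the fit 4 passed as well.

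The Psmd8 probe had the widest range of the 35. It was low in 11 arrays (4.79 to 7.92) and high in 13 (10.17 to 11.66), with no array between, a range of 6.86 on the log2 scale. The lowest value came from an array in which the probe was not detected. Psmd8 encodes a lid subunit of the 19S particle. The split ran through groups: the 4 P3 controls stood at 10.94, 6.15, 6.94 and 11.36, the P3 mutants at 5.48 and 10.17, and the P13 mutants at 10.70 and 6.30. All arrays of P6 and of adults were high, and of P20 only control 3 was. In 5 of the 11 low arrays the probe was not detected. Psmd8 did not pass at any age, and its P13 difference of 2.26 had a 95% interval from -1.83 to 6.35. The next widest range was that of Psmd14, the deubiquitinase of the lid, at 4.03, against a median of 1.50 over the 35 genes.

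**Figure D5:**
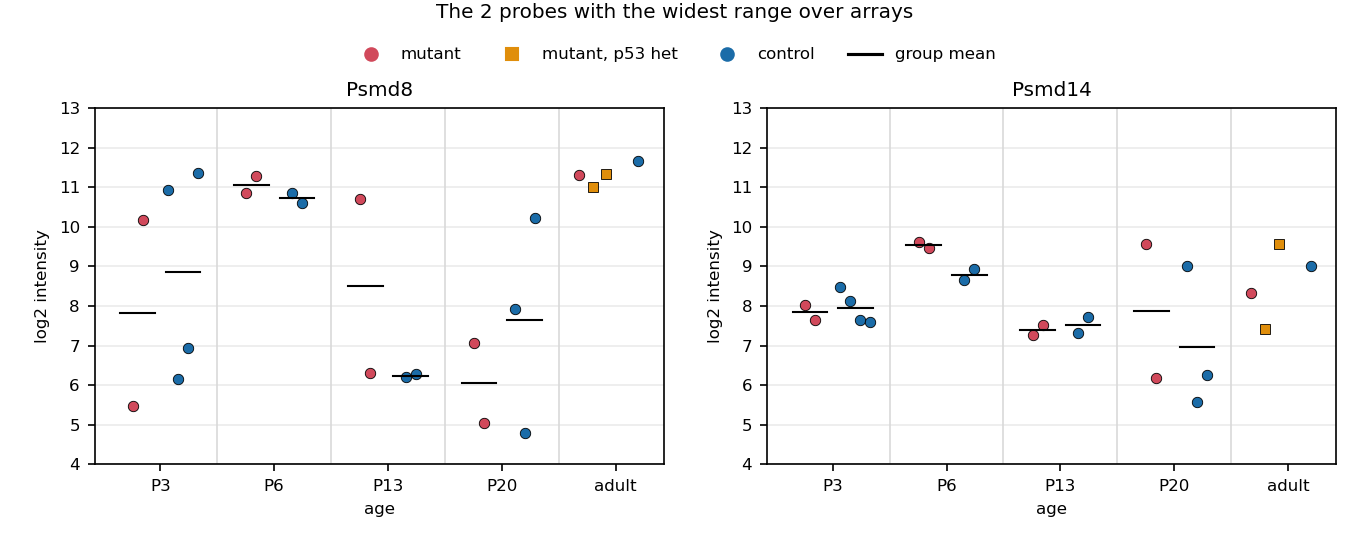
Log2 intensity (y axis) in each array at each age (x axis) for Psmd8 and Psmd14, the probes with the widest range, with mutants in red, p53f/+ mutants in orange, controls in blue and bars at group means. Psmd8 falls into a low set of 11 and a high set of 13 arrays; the array with conflicting labels, in the low set, is not drawn.

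Probes of the same gene did not always agree. For the 16 genes with 2 or more detected probes, all probes had the same sign in 7 genes at P3, 11 at P6, 8 at P13, 14 at P20 and 8 in adults. The widest disagreement at P13 was in Psmb7, whose 4 probes gave -1.79 ± 0.45, -0.77 ± 0.25, -0.57 ± 0.26 and 0.01 ± 0.23. The first 2 of these passed when tested alone, and the probe used above did not. At P20 it was in Psmd1, a large scaffold subunit of the base, with 2.09 ± 0.64, 0.27 ± 0.25 and 0.14 ± 0.31.

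Other genes of the pathway were described from a list of 38, of which 31 were tested. At P3 none passed by limma (unadjusted p under 0.05 in 1). At P6 3 of 31 were higher (9.68%), where 9.57% of all genes were: Psmb8 and Psmb9, given above, and the ubiquitin receptor gene Adrm1 (0.94 ± 0.25, adjusted p = 0.011). At P13 3 of 31 passed (9.68%), against 20.5% of all genes. Nploc4, a cofactor of the segregase Vcp, was higher (0.93 ± 0.27, adjusted p = 0.023), and the ubiquitin genes Ubb (-1.03 ± 0.21, adjusted p = 0.0021) and Rps27a (-0.97 ± 0.32, adjusted p = 0.043) were lower. Zfand2a, which encodes a stress-induced protein that binds the proteasome, was higher at P20 (1.03 ± 0.22, adjusted p = 0.0066) and in adults (1.20 ± 0.28, adjusted p = 0.0086). It was the only 1 of 31 to pass at either age (3.23%), where 4.46% of all genes were higher at P20 and 5.21% in adults. Outside the pathway, the 3 genes whose levels followed the mean of the standard subunits without Psmd8 most closely over 23 arrays were LOC100048803, Gjb2 and Rbm42 (Pearson correlations of 0.89, 0.88 and 0.88). These arrays share chips and ages, and the correlations are descriptions.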

How the data were processed

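RNA of epidermis was hybridized to Illumina BeadChips, 1 array per sample. The authors deposited an average bead signal (intensity) per probe, not normalized between arrays; values below 0 on 4 arrays of chips G and H show a subtracted background. A detection p-value follows each intensity, per the file headers; 10 columns held it and 13 deposited columns held the fraction 1 minus it. The 1 column of bead numbers stayed out. The deposited matrix is on the log2 scale; limma is named in the submitters' processing notes, with no role given.

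Intensities were corrected by the normal-exponential model (offset 16), quantile-normalized and log2-transformed (R 4.3.3, limma 3.58.1). Of 45281 probes, the 20431 detected (p under 0.01) on 2 or more arrays entered, and each gene took its probe with the highest mean. All 24 arrays entered limma's linear model, each group having its own mean (12 residual, 4.09 prior degrees of freedom), with Benjamini-Hochberg adjustment over the 14216 genes of each comparison; adults compare 3 mutants with 1 control. Symbols were updated through RefSeq (27760 probes directly, 7994 by synonym). No 2 arrays were copies (smallest SD of a log2 difference 0.32).

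Named genes were the called genes whose arrays did not overlap (up to 4 each way per comparison), the 4 smallest p of each F test, catalytic and activator genes, and untested members; called genes of the other pathway list, up to 4 per comparison; and the 3 most alike genes. Psmd8, Psmd14, Psmd1 and the listed calls of alternative settings were named after their values were seen. The members, lists and motifs were chosen with earlier results of these data known. On data simulated for P6, 16 of 100 genes changed by 1 log2 unit and 72 of 100 changed by 2 were recovered, with 4 false calls among 14216 genes. The simulation changed 200 genes in all and drew its noise independently for each array. In the data 3264 genes were called at P6, and the fit with the chip as a random block gave a correlation of 0.47. The simulated rates therefore need not hold for the data.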

Additional observations from a re-analysis of the deposited data

Results flagged for a closer look

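The mutant effect differed between P3, P6, P13 and P20 for 3 proteasome genes, tested by limma's F test over the age effects: Psmd12 (adjusted p = 0.0178), Psme2 (adjusted p = 0.0205) and Psmd5 (adjusted p = 0.0275).

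Among the 35 genes, the 4 P3 controls were searched for a sample far from the others, which chance gives in about 1 group in 20. Psmb6 stood at 12.06 in P3 control 3, with the others between 11.89 and 11.91, and Psmd7 at 11.53 in P3 control 1, with the others between 11.69 and 11.72. These were 2 of 35 groups.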

How the results depend on the processing

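The counts of proteasome genes past the threshold were recomputed under 18 settings at P3, 16 at P6 and 15 at P13, at P20 and in adults. At P3 the count was 0 in all 18. At P6 (2 genes) it was 0 with the fibroblast mean in the fit, 1 on chips that held both groups, 4 with the chip as a fixed or random block and with every probe tested alone, 7 with 75th percentile scaling, 9 with only the groups compared and without chips G and H, and 10 with array weights. At P13 (3 genes) it was 5 without background correction, with an offset of 50 and with every probe alone, 6 with the authors' normalized values and with either chip block, 10 without chips G and H, and 12 with array weights. At P20 (2 genes) it was 0 with only the groups compared and with array weights, 1 with every probe alone, 4 without background correction, with 75th percentile scaling, with detection in 12 arrays and without chips G and H, 5 with the authors' values, 7 with the random and 8 with the fixed chip block. In adults (1 gene) it was 0 with no filter on dim probes, with only the groups compared and with the fibroblast mean. Genes whose effect differed between ages (3) numbered 1 with the fibroblast mean, 5 with the authors' values, 6 with either chip block, 7 without chips G and H and 10 with array weights. Genes that differed between control ages (14) numbered 4 with the fibroblast mean or the random chip block and 26 with array weights. Leaving out single arrays gave 0 at P3, 1 to 2 at P6, 0 to 1 at P13, 0 to 10 at P20, 0 to 1 in adults, 1 to 5 for differing effects and 6 to 17 for control ages. The difference of Psme2 at P6 turned to -0.16 with the fibroblast mean in the fit. The cause of these shifts was not tested. The settings without chips G and H and with every probe alone were added after the data were seen. Not run were the authors' values in adults, where their columns hold few probes, the adult comparison without its lone control, and control ages with the chip as a fixed block, which could not be fitted. At P13 and P20 every chip already held both groups. No paired analysis was possible because mutants and controls of an age share no sample number in the labels. Dim probes limit what is known of Psmd2, Psmd6 and Psmd9, detected in 9, 7 and 12 arrays.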
